A study of Mus musculus with 20 samples.

Results

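The 8 genes described here, Hmgcs1, Sqle, Idi1, Lss, Fdft1, Insig1, Srebf1 and Srebf2, belong to the cholesterol synthesis pathway and its control. They were chosen by name, as the rows of both abundance tables whose gene symbol was one of the 8, and all 8 were present among the 21509 protein-coding genes of each table. No measured value entered the choice. Although the set was labelled as synthesis and uptake genes, it holds 5 enzymes and 3 regulators and no receptor for cholesterol uptake, and the uptake genes are given from a list of their own further on.

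Cholesterol is built from acetyl-CoA through mevalonate, isoprenoid units and squalene, which is then oxidised and folded into the sterol ring. HMGCS1 makes HMG-CoA, IDI1 interconverts the isoprenoid building blocks, FDFT1 joins farnesyl units into squalene, SQLE oxidises squalene, and LSS closes the ring to lanosterol. SREBP2, encoded by Srebf2, is the main transcription factor of these enzymes, and SREBP1, encoded by Srebf1, is better known for fatty acid synthesis. Both are made as membrane proteins of the endoplasmic reticulum. When sterols are plentiful, INSIG1 holds them there together with SCAP, and when sterols are scarce they are cut and enter the nucleus, so target transcripts can move without any change in Srebf2 itself. In the epididymis, cholesterol handling by the epithelium is known as a part of sperm maturation, during which sperm membranes change their sterol content.

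RNA-seq was made from DC2 cells, an immortalized mouse line from principal cells of the distal caput epididymidis. In the first experiment, 6 libraries came from cells under shear stress of 1 dyne/cm2 for 3 h (flow) and 6 from cells kept without it for 3 h (static). By the methods, these cells had first spent a period in low-serum medium. The timeline given for siRNA cells, that of the calcium assays, has a lower seeding density, days in normal medium and a shorter low-serum period. In the second, 4 libraries came from cells given a mixture of 3 siRNAs against Ift88, a gene needed to build the primary cilium, and 4 from cells given a scrambled control siRNA. According to the paper both siRNA groups were under flow, which the labels do not name, and no static siRNA cells were analysed here. Every library thus comes from 1 immortalized line grown in microfluidic channels.

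The libraries had between 15292 and 16682 genes above 0. Values are TPM, a share of all transcripts of a library corrected for transcript length. They keep no total of reads, so the absolute depth and the counting error are unknown. Ift88 was at 1.30 ± 0.326 TPM (SD, n = 4) with its siRNA and 4.14 ± 0.0541 TPM with control siRNA, and no library overlapped. The title of 1 library says flow where its treatment field says static, and it was placed by its title, as flow replicate 6. Of 7 principal cell markers, 6 were under 2 TPM in every library, Crisp1 and Rnase9 were listed at 0 throughout, and the highest value of any was 7.41 TPM. Epcam, Cdh1 and Krt8 were also under 2 TPM, while Krt18, an epithelial keratin, and Cd68, a lysosomal protein often used as a macrophage marker, were at 10 TPM or more in every library. The other leukocyte markers and all basal and endothelial markers stayed under 2 TPM. The libraries therefore carry few of the transcripts that define principal cells in tissue.

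The letters upstream of the genes are shown because these genes share a control that is read from them. RefSeq windows on GRCm38.p6, covering the 250 bases before an annotated start, were matched for 6 of the 8 genes, with 8 windows in all since Srebf1 had 3. A sterol regulatory element-like motif, TCACNCCA on either strand, was present in the windows of Hmgcs1 and Srebf2 and in 3.67% of the 32851 windows of all genes. The CCAAT box, bound by NF-Y, a common partner of SREBPs, was present on either strand in at least 1 window of all 6 genes, against 33.8% of all windows. The GC box GGGCGG, bound by Sp1, was likewise present in all 6, against 32.7% of all windows. The E-box CACGTG was present in Insig1 alone of the 6, between bases -101 and -96 from its RefSeq start, against 6.02% of all windows. These matches describe letters only, and none was tested for binding.

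In the 4 stretches that follow, written 5′ to 3′ on the strand of the gene, capitals mark TCACNCCA and the CCAAT box, which reads ATTGG on the other strand. They end where the gene begins in GENCODE M21 if that lies inside the window. They were taken from chr13:119690101-119690350 for Hmgcs1, chr15:82147019-82147180 for Srebf2, chr5:28071162-28071362 for Insig1 and chr10:76531355-76531587 for Lss, all on the plus strand. Hmgcs1 and Srebf2 are shown for their sterol element-like letters, at -137 to -130 and -162 to -155 from the RefSeq start. For Srebf2, Insig1 and Lss the RefSeq start lies beyond the printed end, so positions given here do not count from that end. Insig1 and Lss are shown as genes of the same program without such letters in these windows.
Hmgcs1: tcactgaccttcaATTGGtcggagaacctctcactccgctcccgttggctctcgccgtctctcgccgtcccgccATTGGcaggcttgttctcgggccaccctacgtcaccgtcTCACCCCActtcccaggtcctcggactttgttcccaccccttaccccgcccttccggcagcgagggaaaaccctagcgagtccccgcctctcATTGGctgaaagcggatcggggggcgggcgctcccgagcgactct
Srebf2: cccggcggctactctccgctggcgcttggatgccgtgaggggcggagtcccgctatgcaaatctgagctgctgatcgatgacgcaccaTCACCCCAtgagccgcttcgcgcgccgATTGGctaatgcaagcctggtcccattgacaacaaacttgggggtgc
Insig1: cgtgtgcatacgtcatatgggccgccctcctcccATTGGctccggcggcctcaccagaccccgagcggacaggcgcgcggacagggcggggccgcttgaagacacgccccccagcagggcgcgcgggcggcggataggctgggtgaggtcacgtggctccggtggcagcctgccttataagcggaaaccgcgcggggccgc
Lss: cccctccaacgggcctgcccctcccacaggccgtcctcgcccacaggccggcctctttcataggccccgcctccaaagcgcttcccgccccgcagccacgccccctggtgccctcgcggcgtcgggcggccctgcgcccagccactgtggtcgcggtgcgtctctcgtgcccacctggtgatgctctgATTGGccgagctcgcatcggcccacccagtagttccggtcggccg

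The 8 genes lie on 6 chromosomes of GRCm38 by Ensembl gene ID in GENCODE M21. Hmgcs1 (ENSMUSG00000093930) runs from 119690379 to 119708260 and Idi1 (ENSMUSG00000058258) from 8885501 to 8892451, both on chromosome 13. Sqle (ENSMUSG00000022351) runs from 59315077 to 59331192 and Srebf2 (ENSMUSG00000022463) from 82147181 to 82205379, both on chromosome 15. Lss (ENSMUSG00000033105) is on chromosome 10 from 76531588 to 76557138, and Insig1 (ENSMUSG00000045294) on chromosome 5 from 28071363 to 28078662. Fdft1 (ENSMUSG00000021273) is on chromosome 14 from 63145150 to 63179578, where it overlaps Ctsb on the other strand. Srebf1 (ENSMUSG00000020538) is on chromosome 11 from 60199089 to 60222581 and overlaps Rai1 on the other strand. Hmgcs1, Idi1 and Lss each overlap a noncoding gene on the other strand. The libraries were directional, but whether the quantification used the strand is not given in the sources used here, so reads of Fdft1 and Srebf1 cannot be told apart from those of their overlapping partners with certainty.

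All 8 genes were above 10 TPM in every library of the first experiment. In bulk RNA, a change in the make-up of the culture and a change in RNA per cell cannot be told apart. Srebf2 was the highest, with 116 to 178 TPM (median 140.1) in static cells and 128 to 172 TPM (median 138) under flow. In every library it exceeded the other 7 genes. Srebf1 was between 39.1 and 67.9 TPM (median 50.6) in static cells and between 39.3 and 57.1 TPM (median 47.0) under flow. The ratio of Srebf2 to Srebf1 within a library lay between 2.42 and 3.00 in static cells and between 2.40 and 3.39 under flow. Insig1, the sterol-regulated brake on both factors, was at 66.9 to 93.1 TPM (median 76.4) in static cells and 66.8 to 104 TPM (median 80.2) under flow. The ranges of the 2 groups overlapped for each of the 3 regulators, with that of Srebf1 reaching higher in static cells and that of Insig1 higher under flow.

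Among the enzymes, Sqle was the most abundant, at 51.9 to 85.1 TPM (median 69.7) in static cells and 52.6 to 94.0 TPM (median 78.4) under flow. Idi1 was at 32.6 to 49.1 TPM (median 36.9) and 26.0 to 53.5 TPM (median 46.8), and Hmgcs1 at 27.8 to 48.5 TPM (median 33.4) and 29.2 to 48.9 TPM (median 39.0). Lss was at 18.8 to 31.6 TPM (median 26.0) and 20.0 to 32.3 TPM (median 28.1), and Fdft1 at 12.9 to 20.2 TPM (median 17.1) and 14.4 to 21.4 TPM (median 16.3). The order by mean was Srebf2, Insig1, Sqle, Srebf1, Idi1, Hmgcs1, Lss and Fdft1 in both groups. Below Srebf2, every gene in that order overlapped its lower neighbour in range across libraries. Within every single library, though, Fdft1 was the lowest and Lss the next to lowest, so their places were as constant as that of Srebf2.

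**Figure D1:**
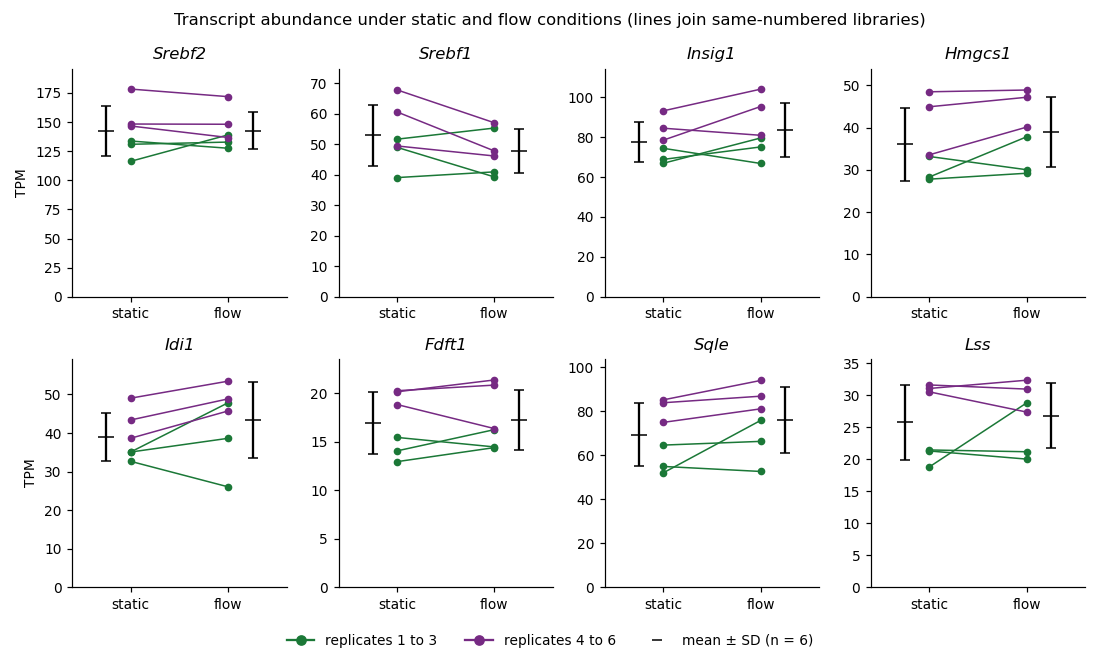
TPM of the 8 genes in the 12 libraries of the first experiment, with lines joining libraries that share a replicate number, green for replicates 1 to 3 and purple for replicates 4 to 6, and black bars for the mean ± SD of 6 libraries. Static and flow points overlap in all 8 panels, and the purple lines mostly lie above the green ones.

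The comparison of flow with static cells asks whether shear stress alters transcript abundance. None of the 8 genes was called (limma on log2(TPM + 1), adjusted p under 0.05 over all genes tested and more than 1.5-fold), where 0.105% of the 11388 genes tested were called. Fitted with a replicate block, the called share was 0.597% of all genes and again 0 of the 8. At an unadjusted p under 0.05 there were also 0 of the 8, against 3.85% of all genes, and 11.1% with the block. The static and flow values overlapped for every one of the 8, as they did for all but 0.544% of genes tested. The 95% intervals bound the differences: all 8 lay within 1.5-fold in both directions, as did 87.3% of those of all genes.

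The means differed by little. The mean of Sqle, a control point of the pathway, was 69.2 ± 14.3 TPM (SD, n = 6) in static cells and 76.1 ± 14.9 TPM under flow, a log2 difference of 0.14 with a 95% interval from -0.19 to 0.46 (limma adjusted p = 0.998). Idi1 was at 39.0 ± 6.19 and 43.4 ± 9.81 TPM, a log2 difference of 0.13 (-0.20 to 0.46). Hmgcs1 was at 36.0 ± 8.66 and 38.9 ± 8.29 TPM, a log2 difference of 0.11 (-0.24 to 0.46). Without flow replicate 2 alone, Idi1 was at 0.27 (0.03 to 0.51, limma adjusted p = 0.317) and Sqle at 0.24 (-0.06 to 0.53, adjusted p = 0.497), and without static replicate 5 Hmgcs1 was at 0.20 (-0.14 to 0.54). These 3 had the highest fitted differences of the enzymes, and each is smaller than its own SD between libraries of 1 group. Lss differed by 0.06 (-0.27 to 0.40) and Fdft1 by 0.03 (-0.26 to 0.32). Of the regulators, Insig1 differed by 0.10 (-0.14 to 0.33) and Srebf2 by 0.01 (-0.20 to 0.22). Srebf1 had the only mean that was lower under flow, at 47.8 ± 7.27 against 53.0 ± 10.03 TPM, a log2 difference of -0.14 (-0.41 to 0.14). The adjusted p was 0.998 for each of the 8, and between 0.509 (Srebf1) and 0.968 (Srebf2) with the replicate block. With the library of conflicting labels counted as static the log2 differences ran from -0.12 (Srebf1) to 0.10 (Insig1), and without it from -0.14 (Srebf1) to 0.11 (Sqle), again with none called. A higher mean under flow was measured for 7 of the 8, against 38.8% of all genes, without any passing the test.

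**Figure D2:**
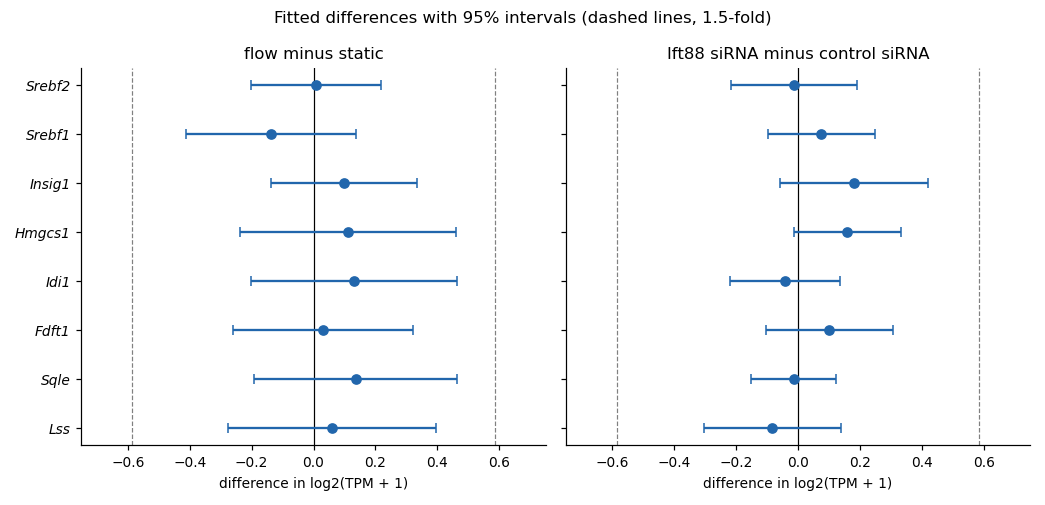
Fitted differences in log2(TPM + 1) with 95% intervals for the 8 genes, flow minus static on the left (n = 6 and 6) and Ift88 siRNA minus control siRNA on the right (n = 4 and 4), with dashed lines at 1.5-fold. Every interval crosses 0 and none reaches a dashed line.

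Centred on its group, each flow library correlated over all genes with its same-numbered static library by 0.294 to 0.662, with flow replicate 3 closer to another number than to its own. The differences within each pair were examined next. In pair 1 all 8 genes were higher under flow, with log2 differences from 0.07 (Srebf1) to 0.59 (Lss), and the median of the 5 enzymes and Insig1 was 0.42. In the same pair 64.0% of all genes were higher under flow, and their median difference was 0.09. No other pair had all 8 higher: the number of the 8 that were higher was 5 in pair 2, 2 in pair 3, 6 in pair 4, 5 in pair 5 and 3 in pair 6. In pair 4 the enzymes and Insig1 were all higher, by 0.06 to 0.28, while only 36.9% of all genes were. In pair 3 both Hmgcs1 and Insig1 were lower under flow, by 0.14 and 0.15 on the log2 scale.

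Taken gene by gene, Hmgcs1, Sqle and Idi1 were each higher under flow in 5 of 6 pairs, a pattern held by 11.5% of all genes. The exception of Idi1 was pair 2, at -0.32, while its other 5 differences lay between 0.12 and 0.44. In an alternative chosen after seeing the data, leaving out pair 2 with the replicate block, Idi1 differed by 0.22 (SE 0.063) and still missed the threshold (limma adjusted p = 0.0538). Sqle then differed by 0.18 (adjusted p = 0.162) and Srebf1 by -0.18 (adjusted p = 0.120). Insig1 and Fdft1 were higher in 4 pairs, so that 5 of the 8 genes were higher in at least 4, against 26.4% of all genes, and Lss and Srebf2 were higher in 2. Srebf1 was higher in pairs 1 and 2 and lower in the other 4, by up to 0.34 in pair 6. Its difference was the lowest of the 8 in every pair except pair 2.

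**Figure D3:**
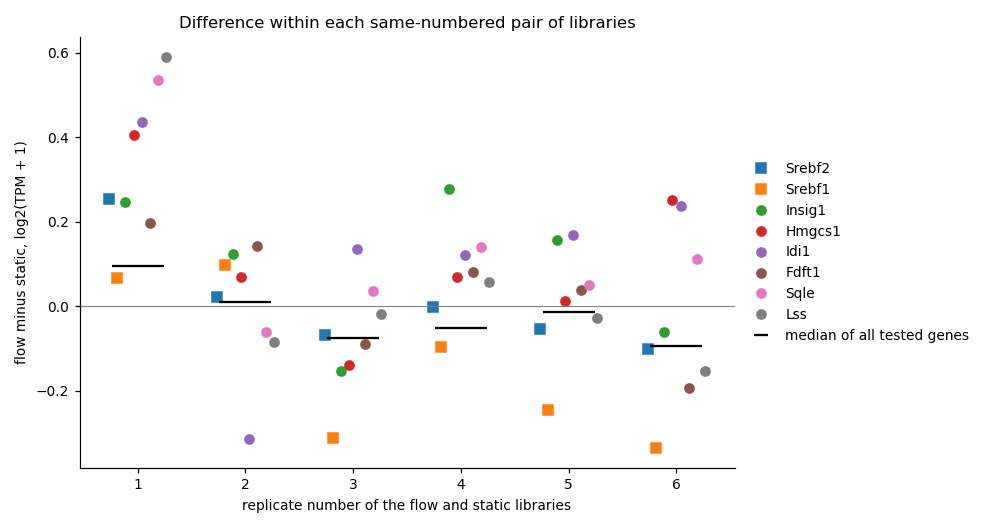
Difference in log2(TPM + 1) between the flow and static library of each replicate number for the 8 genes, squares for Srebf2 and Srebf1, circles for the others, and a black bar for the median of all 11388 tested genes. Pair 1 holds the highest values, up to 0.59 for Lss, and Idi1 in pair 2 is the lowest circle, at -0.32.

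The larger source of spread lay between replicates 1 to 3 and replicates 4 to 6, numbers that the labels tie to no date or batch. In static cells, replicates 4 to 6 were all above replicates 1 to 3 for 7 of the 8 genes, the exception being Srebf1, against 31.3% of all genes. Under flow this held for 4 of the 8 (Hmgcs1, Sqle, Fdft1 and Insig1), against 16.4% of all genes, and in both groups for the same 4, against 11.8%. Lss in static cells was at 18.8, 21.3 and 21.4 TPM in replicates 1 to 3 and at 31.1, 31.6 and 30.5 TPM in replicates 4 to 6, a ratio of means of 1.52. Hmgcs1 was at 28.3, 27.8 and 33.2 TPM and then at 44.9, 48.5 and 33.6 TPM, a ratio of 1.42, with a ratio of 1.40 under flow. Over the 8 genes and both groups the ratios ran from 1.11 (Srebf1 under flow) to 1.52, beside fitted folds between flow and static cells of 0.909 (Srebf1) to 1.10 (Sqle). This split was seen in the data and is given as a description with no test.

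Within each set of replicates none of the 8 was called either. In replicates 1 to 3 the log2 differences ran from -0.05 (Srebf1) to 0.17 (Sqle), and in replicates 4 to 6 from -0.23 (Srebf1) to 0.18 (Idi1). Lss differed by 0.16 in the first set and -0.04 in the second, Fdft1 by 0.08 and -0.02, and Srebf2 by 0.07 and -0.05. With the replicate block, an alternative chosen after seeing the data, the intervals of 2 genes left out 0 in replicates 4 to 6, those of Srebf1 (-0.38 to -0.07, unadjusted p = 0.0117, limma adjusted p = 0.136) and Idi1 (0.04 to 0.31, unadjusted p = 0.0210, limma adjusted p = 0.169). In that fit 2337 of 11424 genes had an unadjusted p under 0.05. In replicates 1 to 3 no interval of the 8 left out 0. The test of the difference of the flow effect between the sets called 0 genes of 11388 (limma, 238 genes at an unadjusted p under 0.05, none of the 8 among them), and with the replicate block 0.158% of all genes and again 0 of the 8. For Lss, with the largest gap between the sets, that difference was -0.20, with a 95% interval from -0.60 to 0.19.

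The second experiment asks whether knockdown of Ift88, made to prevent primary cilia, alters transcript abundance in cells under flow. None of the 8 genes was called, where 0.223% of the 11209 genes tested were, and none had an unadjusted p under 0.05, against 13.9% of all genes. Both groups overlapped for all 8, and all but 8.58% of all genes overlapped too. All 8 intervals lay within 1.5-fold in both directions, as did 90.0% of those of all genes. The means were higher with Ift88 siRNA for 4 of the 8 and lower for 4, and 55.0% of all genes had a higher mean.

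Insig1 had the highest fitted difference of the 8. Its values were 398, 396, 432 and 371 TPM with Ift88 siRNA and 347, 281, 452 and 347 TPM with control siRNA. No control value lay inside the range of the Ift88 siRNA libraries, since 3 were below it and replicate 3 was above it. The log2 difference was 0.18 (SE 0.11), with a 95% interval from -0.06 to 0.42 (limma adjusted p = 0.486). It rested on single control libraries, at 0.07 without control replicate 2 and 0.30 (0.13 to 0.47, limma adjusted p = 0.150) without control replicate 3. Hmgcs1 was at 92.5, 92.6, 86.2 and 77.3 TPM with Ift88 siRNA and 76.4, 71.5, 75.8 and 88.0 TPM with control siRNA. Control replicate 4 was the only library of its group inside the range of the Ift88 siRNA libraries, and the log2 difference of 0.16 (SE 0.080) had an interval from -0.01 to 0.33 (unadjusted p = 0.0683, limma adjusted p = 0.399). Fdft1 was at 64.8, 60.4, 56.0 and 57.0 TPM against 50.5, 51.0, 53.5 and 68.2 TPM. Control replicate 4 was again the exception, here above every Ift88 siRNA library while the other 3 were below all of them, and the log2 difference was 0.10 (-0.10 to 0.31, limma adjusted p = 0.678), or 0.20 without that library (limma adjusted p = 0.292).

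Sqle was at 456, 441, 417 and 388 TPM with Ift88 siRNA and 417, 407, 433 and 460 TPM with control siRNA, and the log2 difference was -0.01 (-0.15 to 0.12). Idi1 was at 92.8, 85.7, 90.6 and 76.4 TPM against 86.4, 89.2, 80.3 and 100.1 TPM, with a log2 difference of -0.04 (-0.22 to 0.13). Lss was at 98.7, 86.5, 87.3 and 77.1 TPM against 85.5, 95.4, 79.7 and 111 TPM, with a log2 difference of -0.08 (-0.30 to 0.14). In all 3, the fourth Ift88 siRNA library was the lowest and the fourth control library the highest of the 8 libraries. Without control replicate 4 the log2 differences were 0.02 for Sqle, 0.02 for Idi1 and 0.0076 for Lss.

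Srebf1 was at 34.6, 32.0, 33.3 and 28.3 TPM with Ift88 siRNA and 29.3, 31.8, 30.4 and 29.8 TPM with control siRNA, a log2 difference of 0.07 (-0.10 to 0.25, limma adjusted p = 0.727). Srebf2 was at 242, 217, 168 and 185 TPM with Ift88 siRNA and 204, 205, 200.1 and 202 TPM with control siRNA. The 4 control values of Srebf2 had a CV of 1.03%, while those of the knockdown had a CV of 16.4% and lay on both sides of them, and the means were 203 ± 33.3 and 202 ± 2.08 TPM. The log2 difference was -0.01 (-0.22 to 0.19). No test of the difference in spread was made with 4 libraries a group.

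**Figure D4:**
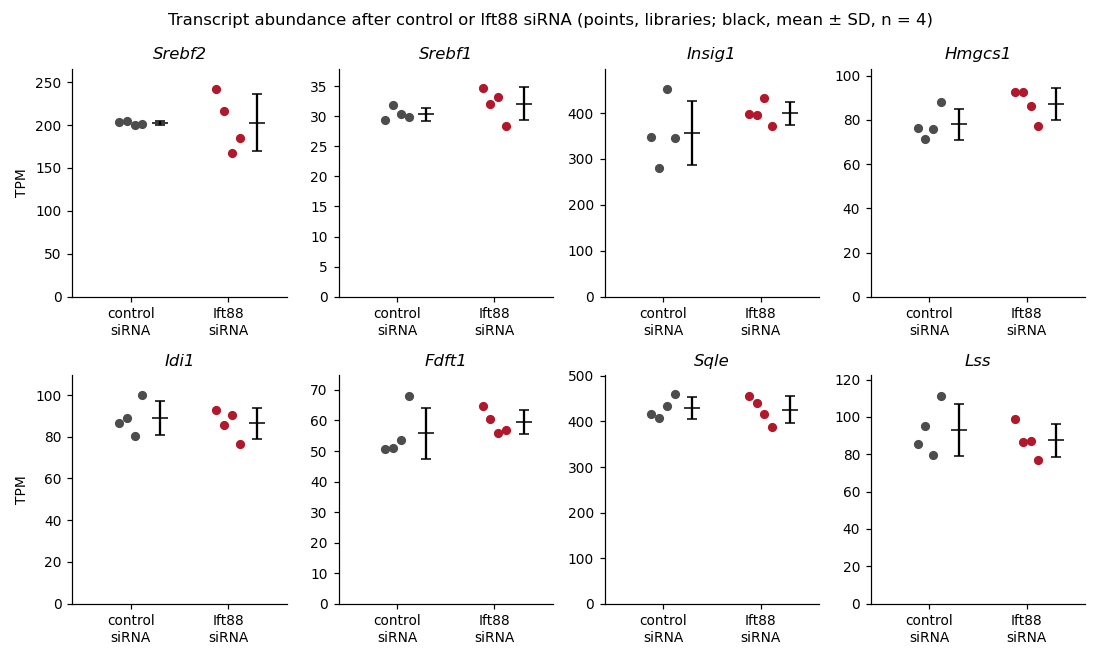
TPM of the 8 genes after control siRNA (grey) or Ift88 siRNA (red), with 1 point for each of 4 libraries and black bars for the mean ± SD. The groups overlap in all panels, and the 4 control points of Srebf2 lie between 200.1 and 205 TPM while the Ift88 siRNA points run from 168 to 242.

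The 2 experiments were normalized in separate tables and no library links them, so levels between them are set side by side with no test. The experiment, transfection, time in low-serum medium and other handling cannot be told apart. Flow libraries and control siRNA libraries are the nearest match, both of DC2 cells under flow by the paper's account. The sterol enzymes and Insig1 stood higher in the control siRNA libraries. Sqle was at 429 ± 23.3 TPM (n = 4) there and 76.1 ± 14.9 TPM (n = 6) in the flow libraries, a ratio of 5.64. The ratio was 4.27 for Insig1, 3.47 for Lss, 3.23 for Fdft1, 2.05 for Idi1 and 2.00 for Hmgcs1. Each of these 6 exceeded in every control siRNA library its highest flow library. The same held for Srebf2, with a ratio of 1.42, and for other genes of the pathway lists, but not for Srebf1. The share over all genes was not counted, so this separation is not read as particular to the 6. Across the 10895 genes tested in both tables the median ratio was 0.991, and 12.6% of them were at least 2-fold higher.

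The transcription factor genes gave lower ratios. Srebf2 was at 202 TPM in the control siRNA libraries and 143 TPM in the flow libraries, a ratio of 1.42, and Srebf1 at 30.3 against 47.8 TPM, a ratio of 0.635. The ratio of Srebf2 to Srebf1 within a library, which does not depend on the scaling of a library, was between 6.43 and 6.96 with control siRNA, against 2.40 to 3.39 under flow. The ratio of Insig1 to Srebf2 was between 1.38 and 2.26 with control siRNA and between 0.524 and 0.644 under flow. With control siRNA the order by mean was Sqle, Insig1 and Srebf2 at the top, then Lss, Idi1 and Hmgcs1 close together, then Fdft1 and Srebf1. Among these libraries the neighbours Sqle and Insig1, Lss and Idi1, and Idi1 and Hmgcs1 overlapped in range, and the other steps did not.

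**Figure D5:**
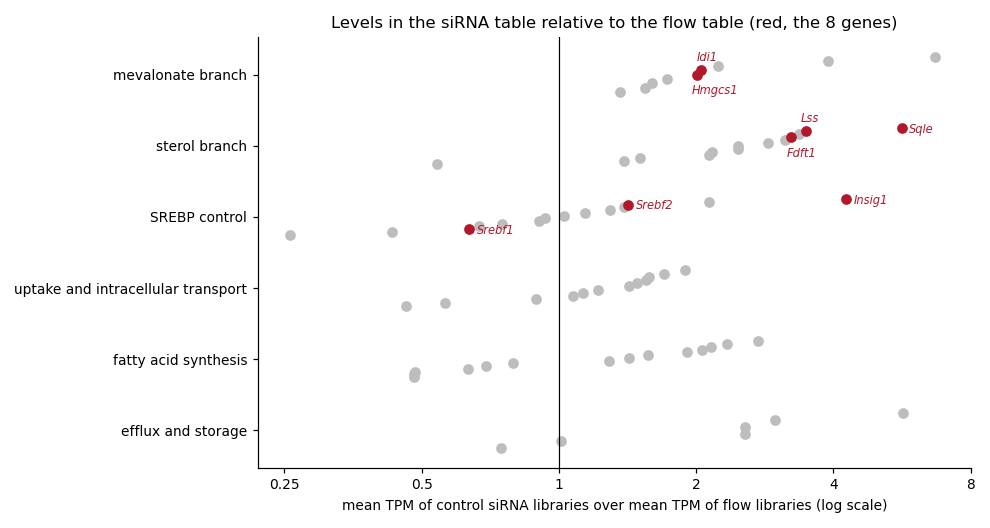
Ratio of the mean TPM of 4 control siRNA libraries to that of 6 flow libraries (log scale) for each tested gene of 6 pathway lists, with the 8 genes in red. Points of the sterol branch mostly lie right of 2, and Sqle (5.64), Insig1 (4.27) and Srebf1 (0.635) mark the span of the 8.

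The wider pathway lists gave a range of ratios. The median ratio between control siRNA and flow libraries was 2.47 over 13 sterol branch genes, of which 10 were at least 2-fold higher, and 2.00 over 9 mevalonate branch genes, of which 5 were. It was 0.979 over 14 genes of SREBP control, 1.32 over 12 uptake and transport genes, of which 0 were at least 2-fold higher, and 1.35 over 14 fatty acid synthesis genes. Over 6 efflux and storage genes it was 2.56, with 4 at least 2-fold higher. The highest ratio of the mevalonate branch was 6.67, for Acat2, the thiolase that opens the pathway.

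Correlations between the genes from library to library were computed within the sets of replicates. The 15 correlations (Pearson's r of log2(TPM + 1)) among the 5 enzymes and Insig1 ran from 0.206 to 0.930 with a median of 0.756 over the 6 libraries of replicates 1 to 3, and from 0.280 to 0.963 with a median of 0.580 over those of replicates 4 to 6. All 15 were above 0 in both sets. Over all pairs of tested genes the median r was 0.156 in the first set and 0.135 in the second, with 57.8% and 58.2% of pairs above 0. In the second experiment, over 8 libraries, the 15 ran from -0.410 (Lss with Insig1) to 0.947 (Lss with Idi1) with a median of 0.545, beside 0.0649 over all gene pairs. With Srebf1 and Srebf2 the 6 targets had a median r of 0.344 there, and of 0.560 over all 12 libraries of the first experiment, from -0.0715 (Idi1 with Srebf1) to 0.891 (Insig1 with Srebf2). Values over all 12 libraries include the split between the sets of replicates, and among the 6 targets themselves the median was then 0.886. No median over all gene pairs was computed for the 12 libraries. The libraries share scaling and cell line, and these values are descriptions with no test.

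The genes most like the mean of the 6 targets were sought in each table among all genes tested that were not members. Over the 12 libraries of the first experiment they were Dpysl3 (r = 0.958), Cyp51 (0.958), Cldnd1 (0.957), Reep3 (0.957) and Fat2 (0.953), a measure that includes the split between replicates 1 to 3 and 4 to 6. Over the 8 libraries of the second they were Evl (0.942), Pole (0.917), 4921524J17Rik (0.915), Zfp97 (0.912) and Nckipsd (0.902). Of the first 50 in each table only 1 gene, Cyp51, was shared, which is 2.00% of each list. Cyp51 encodes lanosterol 14-alpha-demethylase, the enzyme that acts on the product of LSS, and it was at rank 29 in the second table with r = 0.853.

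The rest of the pathway was read from 6 lists of 73 genes, of which 69 passed the filter in the flow comparison and 68 in the siRNA comparison. None of them was called in either comparison, and none with the replicate block. Under flow, the mevalonate branch had 7 of 9 means higher and a median log2 difference of 0.07, and the sterol branch 9 of 13 and 0.03, beside a median of -0.03 over all genes. The lowest of the mevalonate branch was Mvd, a decarboxylase, at -0.05. In the sterol branch Hsd17b7, a ketosteroid reductase, was highest at 0.20, and Tm7sf2, a sterol reductase, was lowest at -0.46 (SE 0.18, unadjusted p = 0.0216, limma adjusted p = 0.998). Tm7sf2 was at 10.3 ± 2.21 TPM in static cells and 7.39 ± 2.48 TPM under flow, lower in all pairs but pair 2, and it was the 1 list gene with an unadjusted p under 0.05. In an alternative chosen after seeing the data, without pair 2 and with the replicate block, it was called lower, at -0.62 (limma adjusted p = 0.00239). That fit called 193 of 11362 genes and leaves out the only pair in which Tm7sf2 was higher.

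Among 14 genes of SREBP control, 6 means were higher and 8 lower, with a median of -0.01, and Insig1 and Srebf1 were themselves the highest and the lowest. Of 12 uptake and transport genes, 11 means were lower under flow, with a median of -0.11. Vldlr, a lipoprotein receptor, was the lowest of the list at -0.40 (-1.14 to 0.34). Fatty acid synthesis had 4 means higher and 10 lower with a median of -0.06, from Lpin1 (-0.31), a phosphatidate phosphatase, to Fasn (0.07), the fatty acid synthase. Efflux and storage, with 7 of 11 genes tested, had 2 higher and 5 lower with a median of -0.07, from Nr1h2 (-0.15), a liver X receptor, to Apoe (0.12), an apolipoprotein.

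With Ift88 siRNA the list medians were between -0.01 and 0.09, beside 0.02 over all genes. The mevalonate branch had a median of 0.01, with 6 of 9 means higher, and ran from Idi1 (-0.04) to Fdps (0.20), the farnesyl diphosphate synthase. Fdps was at 799 ± 19.7 against 701 ± 82.98 TPM (limma adjusted p = 0.264). The sterol branch had 7 means higher and 6 lower, with Tm7sf2 the highest at 0.27. SREBP control was split 7 and 7, from Mbtps2 (-0.28), the protease that makes the second cut of SREBPs, to Insig1 (0.18). Uptake and transport had 9 means higher and a median of 0.09, from Vldlr (-0.07) to Gramd1b (0.30), a sterol transporter at under 3 TPM. Fatty acid synthesis ran from Scd2 (-0.20), a desaturase, to Acss2 (0.16), an acetyl-CoA synthetase, and efflux and storage from Apoe (-0.41, limma adjusted p = 0.362) to Nr1h2 (0.15). Across these lists 5 genes had an unadjusted p under 0.05, and none passed the adjusted threshold.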

How the data were processed

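RNA-seq abundances of 20 libraries (6 flow, 6 static, 4 Ift88 siRNA, 4 control siRNA) were used. The authors deposited TPM in 1 table per experiment. Per the paper's methods, reads were trimmed with Trimmomatic, assigned to the Ensembl transcriptome with kallisto (0.46.2 in the submitters' processing notes) and summarised with tximport. Those notes also list fastp (0.20.0), another read trimmer, which the paper does not name. From the TPM, log2(TPM + 1) was tested by limma (version 3.58.1; R 4.3.3; lmFit, eBayes with a trend) over genes with a table mean of at least 1 TPM, adjusted by Benjamini-Hochberg, and called at an adjusted p under 0.05 and over 1.5-fold. All 8 genes passed the filter in both tables. The scripts were tested on simulated data. Deviations of same-numbered flow and static libraries correlated by 0.294 to 0.662. They were treated as paired only for the within-pair differences and the replicate block, and the main fit was unpaired. Flow replicate 3 was closer to another number, and no source names a pairing. Libraries were grouped by labels, and since nothing states that replicates are separate cultures, p-values measure the spread between these libraries. The members, the lists and the rule for named genes (extremes of each list per comparison, and the 5 most similar genes per table) were chosen with earlier results of these data known. Some genes that this rule names are not reported here. Positions are from GENCODE M21 and promoters from RefSeq, both on GRCm38, an older build than the authors' annotation. Tables and plots were made in Python 3.11.15 with pandas 2.3.3, numpy 2.4.6 and matplotlib 3.10.9.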

Additional observations from a re-analysis of the deposited data

How the results depend on the processing

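The depth behind TPM is unknown, so what counting error adds cannot be given, and intervals rest on the spread between 6 or 4 libraries. None of the 8 genes was called under any alternative, 30 per gene under flow and 14 with Ift88 siRNA, and the lowest adjusted p was 0.0538 (Idi1 without pair 2, replicate block) and 0.150 (Insig1). Under some alternatives an interval left out 0. Under flow this was so for Idi1, Sqle, Insig1 and Srebf1, for example Idi1 with library weights (0.02 to 0.55). With median-of-ratios scaling and the block it was so for Sqle (0.02 to 0.31) and Insig1 (0.004 to 0.25). With Ift88 siRNA and library weights it was so for Hmgcs1 (0.04 to 0.36) and Insig1 (0.03 to 0.44). Fdft1 without control replicate 4 was another (0.03 to 0.37). Direction held in 221 of 240 values under flow and in 103 of 112 with Ift88 siRNA. Under flow, Hmgcs1, Sqle, Idi1, Insig1 and Srebf1 kept theirs throughout. The other filters and the plain replicate block leave each log2 difference unchanged, so in those settings the direction could not change. A block added within a replicate set or to median-of-ratios scaling likewise repeats the value without it, so these totals overstate how far direction was tried. Within replicates 4 to 6, with or without the block, Lss was at -0.041, Fdft1 at -0.024 and Srebf2 at -0.052, and without pair 1 with the block at -0.045, -0.0040 and -0.041. Leaving out 1 library, Lss ran from -0.021 to 0.14, Fdft1 from -0.039 to 0.082 and Srebf2 from -0.047 to 0.076, while Hmgcs1 ran from 0.041 to 0.20, Sqle from 0.060 to 0.24, Idi1 from 0.065 to 0.27, Insig1 from 0.033 to 0.16 and Srebf1 from -0.22 to -0.063. With Ift88 siRNA, library weights gave 0.020 for Sqle and 0.033 for Srebf2, and leaving out 1 library gave -0.048 to 0.030 for Sqle, -0.089 to 0.015 for Idi1, -0.15 to 0.0076 for Lss -0.10 to 0.074 for Srebf2, 0.12 to 0.22 for Hmgcs1, 0.058 to 0.20 for Fdft1, 0.074 to 0.30 for Insig1 and 0.037 to 0.13 for Srebf1. The causes were not tested.

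The count of all called genes was less stable. Under flow (12) it was 2 with no filter, 28 with median-of-ratios scaling, 86 with library weights, 0 with flow replicate 6 as static, 5 within replicates 1 to 3, 56 within replicates 4 to 6 and 5 to 87 without 1 library. It was 68 with the replicate block, and with the block 41 with median-of-ratios scaling, 52 within replicates 1 to 3, 148 within replicates 4 to 6, 8 without pair 1, 193 without pair 2, 51 without pair 3, 38 without pair 4, 34 without pair 5 and 41 without pair 6, all but the plain block chosen after seeing the data. Without pair 2 the block also called 1 sterol branch gene lower, Tm7sf2. The difference of the flow effect between replicate sets called 0 genes, and 18 with the block. With Ift88 siRNA (25) it was 6 with no filter, 48 with library weights, 71 with no fold change threshold and 11 to 23 without 1 library. The siRNA numbers share no pairing (correlations from 0.00276 to 0.259, with replicates 3 and 4 alone correlating best with their own number), and a replicate block gave 44.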
